A study of Mus musculus with 8 samples.

Results

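The odorant receptor (OR) genes beside the major histocompatibility complex on mouse chromosome 17 were followed here as 41 rows of an expression array, 1 row for each of 41 genes. Members were chosen by gene number alone, as every row with a single symbol between Olfr90 and Olfr138, and not by any measured value. The cluster itself was picked for description with earlier results of these data known. The reference annotation holds 49 genes in this range. The other 8 (Olfr98, Olfr100, Olfr102, Olfr104-ps, Olfr105-ps, Olfr126, Olfr128 and Olfr135) had no row of their own and were not analysed as members. The 41 rows stand among 1035 OR rows with 1 symbol, 23410 rows with a gene symbol, and 35557 rows in all. All 41 were found by gene identifier on chromosome 17 in the RefSeq annotation of GRCm38.p6, and 1 of them, Olfr106-ps, is a pseudogene.

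Odorant receptors are G protein-coupled receptors that detect odor molecules on the cilia of olfactory sensory neurons (OSNs). Each mature OSN transcribes 1 allele of 1 OR gene, so in whole tissue the level of an OR mRNA depends on how many OSNs chose that gene and on how much mRNA each of them holds. OR genes lie in clusters, and the cluster on chromosome 17 is interspersed with class I genes of the H2-M group, relatives of the antigen-presenting molecules of the immune system. Its members belong to several sequence families, which the MOR nomenclature of mouse ORs numbers. Promoters of OR genes often carry homeodomain sites, and Emx2 and Lhx2 are homeodomain transcription factors of OSNs.

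The study asked whether loss of Emx2 from OSNs alters OR mRNA abundance. Olfactory mucosa was taken on postnatal day 1 from 123Cre:Emx2(fl/fl) mice, the Emx2 knockout (4 samples), and from littermate controls (4 samples). In 123Cre mice, Cre recombinase appears once OSNs are immature neurons, so Emx2 is intact in their progenitors. The controls were 2 samples of 123Cre:Emx2(fl/+), with Cre and 1 floxed allele, and 2 samples of Emx2(fl/fl), with both alleles floxed and no Cre. Every group was on a mixed 129 x C57BL/6J background, and all carried at least 1 floxed Emx2 allele. Biotin-labelled cRNA of each sample was hybridised to 1 Affymetrix whole-transcript array. Values are log2 levels, on which a difference of 1 is a 2-fold change, and all differences are Emx2 knockout minus control. Per the study's methods, litters that gave knockout mice also gave control mice. Which sample came from which litter was not known here, so litter was not in the fit and the p-values rest on the spread among the 8 arrays.

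The deleted gene was lower in every knockout sample. Emx2 read 9.80, 9.86, 10.01 and 9.93 in Emx2 knockout samples 1 to 4, against a lowest value of 10.72 and a mean of 10.84 in control samples (difference -0.94, SE 0.082, limma adjusted p = 0.0014). Lhx2 differed by -0.004 (SE 0.067), and by 0.11 after each array was centred on the mean of mature OSN genes. Omp, which mature OSNs express, had a difference of -0.06 (SE 0.071), and one of 0.05 after the same centring. Knockout sample 2 stood apart from the rest. Its mean correlation with the other arrays was 0.978, against 0.987 to 0.990, and its array weight in limma was 0.17. It is set aside in alternatives below.

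No member passed an adjusted p under 0.05 over all rows, by limma without a block or array weights or by the methods' t-test, where 0.359% of all rows (0.35% lower and 0.00854% higher) and 0.201% of the other OR rows did so by limma. For Emx2 deletion the study listed ORs at an unadjusted p under 0.01 by its own test. It reports that none of them met its limit on the false discovery rate. At an unadjusted p under 0.01 by limma, 5 of 41 members were called (12.2%), against 1.74% of all rows and 4.43% of the other OR rows. Of these 5, Olfr99, Olfr111 and Olfr115 were lower in the knockout (7.32% of members, 1.3% of all rows, 3.82% of other OR rows). Olfr90 and Olfr91 were higher (4.88% of members, 0.436% of all rows, 0.604% of other OR rows). Without knockout sample 2 the same threshold took 4.88% of members, 1.36% of all rows and 4.23% of the other OR rows as higher, and 7.32%, 1.78% and 2.72% as lower, so the share of members that were higher stood close to that of the other ORs. With array weights, which count that sample least, 4.23% of the other OR rows were higher as well. At an unadjusted p under 0.05 the members numbered 6 lower (14.6%, against 3.06% of all rows and 13.5% of the other OR rows) and 2 higher (4.88%, against 3.04% and 2.21%). In either direction these were 19.5% of members, 6.1% of all rows and 15.7% of the other OR rows. By the methods' t-test, 2 members were lower and 2 higher at p under 0.01 (4.88% each), against 1.26% and 0.73% of all rows and 1.11% and 0.402% of the other OR rows. Without knockout sample 4 the lower members numbered 5 at p under 0.01 (12.2%, against 1.18% of all rows and 6.04% of the other OR rows) and 10 at p under 0.05, and without knockout sample 1 or 3 they numbered 3 at p under 0.05. Without knockout sample 2 there were 4 lower and 3 higher members at p under 0.05. For these counts at p under 0.05 with 1 sample left out, the shares of all rows and of the other OR rows are not given here. Such counts are therefore not read as results about the members. With array weights Olfr111 and Olfr91 passed the adjusted threshold by limma (adjusted p = 0.0332 and 0.0167). The share of all rows that passed it with those weights is not given here. At an unadjusted p under 0.01 by limma, the weights took 2.58% of all rows and 7.75% of the other OR rows as lower. As higher they took 2.37% and 4.23%. The shares describe the members and were not tested.

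Most members were lower by a small amount, as were ORs elsewhere in the genome. The difference was below 0 for 31 of 41 members (75.6%), 77% of the other OR rows and 48.4% of all rows. The median difference was -0.13 over members, -0.19 over the other OR rows and 0.00 over all rows. This direction depended on the scaling and, in size, on knockout sample 2. The members' median was -0.02 after centring on mature OSN genes, 0.05 after centring on the other OR rows (16 of 41 below 0), and -0.03 without knockout sample 2 (22 of 41 below 0). Since whole mucosa was measured, fewer OSNs expressing an OR and less of its mRNA per OSN cannot be told apart. The median absolute difference was 0.16 for members, 0.22 for the other OR rows and 0.07 for all rows. Members ranged from -1.10 for Olfr115 to 0.71 for Olfr90.

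Olfr90, the member nearest the Gabbr1 end of the cluster, had the largest positive difference. It read 8.50, 8.92, 8.80 and 8.74 in Emx2 knockout samples 1 to 4, against 7.81, 7.78, 8.24 and 8.29 in control samples 1 to 4. The groups did not overlap, and the lowest knockout value was above the highest control value. The means were 8.74 ± 0.18 in knockout samples and 8.03 ± 0.27 in control samples (SD, n = 4 each), and the difference was 0.71 (SE 0.14, 95% interval 0.39 to 1.04), with an unadjusted p of 0.00083 and an adjusted p of 0.154 by limma. Olfr90 was the 1 member with its highest value in knockout sample 2, the sample with the lowest mean over members and over the other ORs. The difference lay between 0.63 and 0.90 in all 20 alternatives computed for it, each with an unadjusted p under 0.01.

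The window around its annotated start (250 bases before to 50 after, RefSeq, GRCm38.p6, minus strand, chr17:37086187-37086486) is shown because Olfr90 differed in the direction opposite to most members. Capitals would mark a match on either strand to the homeodomain motif TAATTA, to its variants with a last base of G (TAATTG) or with G before the last base (TAATGA), or to the core CCCNNGGG of sites for Ebf proteins, another class of transcription factors in OSNs. This window holds none of them.
Olfr90: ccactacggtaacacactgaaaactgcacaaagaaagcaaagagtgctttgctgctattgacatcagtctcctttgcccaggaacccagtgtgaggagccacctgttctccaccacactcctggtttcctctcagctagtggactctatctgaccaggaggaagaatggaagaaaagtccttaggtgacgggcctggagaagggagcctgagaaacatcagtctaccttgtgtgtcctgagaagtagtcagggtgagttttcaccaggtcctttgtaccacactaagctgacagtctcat

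Olfr91, its neighbor on the map and a member of the same family, MOR256, was higher as well. It read 8.98, 8.83, 8.98 and 9.01 in Emx2 knockout samples 1 to 4, against 8.49, 8.48, 8.55 and 8.75 in control samples 1 to 4. The groups did not overlap. Its means were 8.95 ± 0.082 in knockout samples and 8.57 ± 0.13 in control samples (SD, n = 4 each), a difference of 0.39 (SE 0.084, 95% interval 0.20 to 0.58), with an unadjusted p of 0.00133 and an adjusted p of 0.206 by limma. With the 123Cre:Emx2(fl/+) controls alone the difference was 0.33 and the unadjusted p 0.0229. Over the 8 arrays Olfr90 and Olfr91 correlated at r = 0.87, a description that includes the difference between groups. A further row that carries the symbols Olfr90 and Olfr92 together, and so is no member, read 8.15, 8.06, 8.24 and 8.23 in Emx2 knockout samples, against 7.88, 7.75, 8.06 and 8.10 in control samples. Its difference was 0.22 (SE 0.093, unadjusted p = 0.042 by limma), and its groups overlapped.

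**Figure D1:**
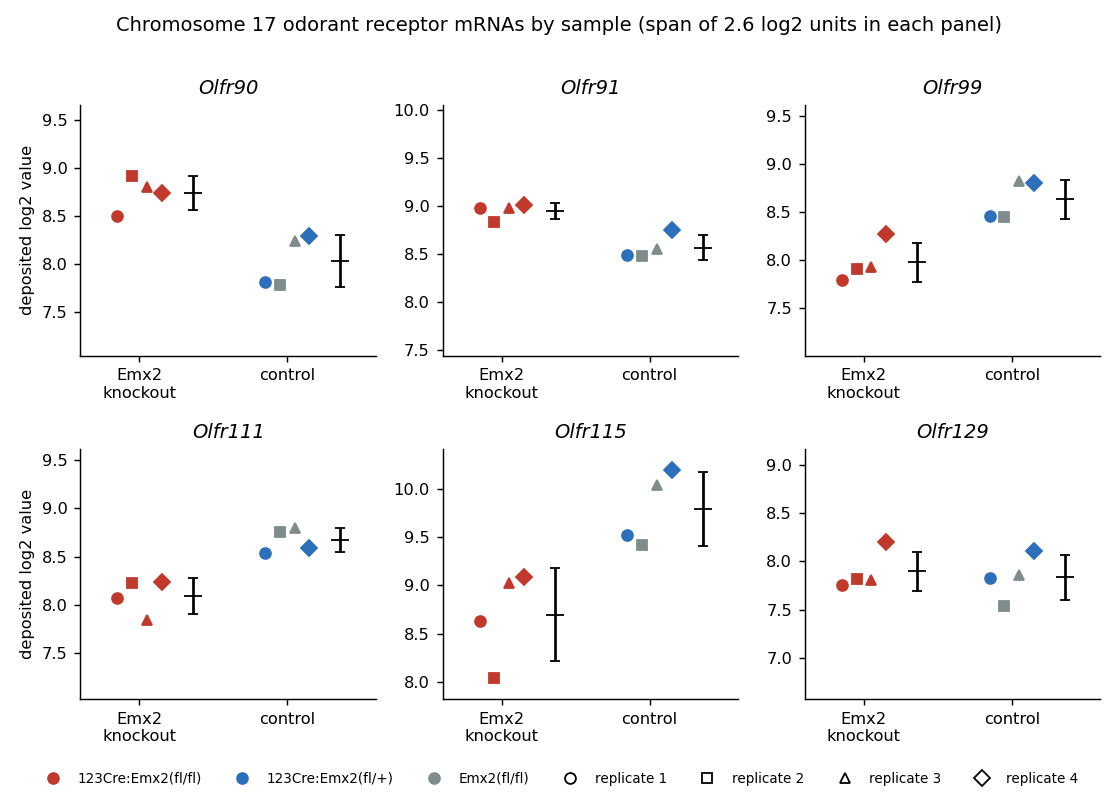
Deposited log2 values (vertical axis, with an equal span in all panels) of 6 chromosome 17 ORs in Emx2 knockout and control samples. Each point is 1 sample, colored by genotype and shaped by replicate, with the mean and SD (n = 4) beside the points. Olfr90 and Olfr91 lie higher in the knockout and Olfr99, Olfr111 and Olfr115 lower, each without overlap, while the values of Olfr129 overlap.

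Olfr115, a member of family MOR218, had the largest difference of the cluster. It read 8.63, 8.04, 9.03 and 9.09 in Emx2 knockout samples 1 to 4, against 9.52, 9.42, 10.04 and 10.20 in control samples 1 to 4. The groups did not overlap. The means were 8.70 ± 0.48 in knockout samples and 9.79 ± 0.39 in control samples (SD, n = 4 each), a difference of -1.10 (SE 0.26, 95% interval -1.69 to -0.51), with an unadjusted p of 0.00235 and an adjusted p of 0.284 by limma. Knockout sample 2 was the lowest, and without it the difference was -0.88, with an unadjusted p still under 0.01. Its unadjusted p was 0.012 by the methods' t-test, and 0.0106 and 0.0177 with the 123Cre:Emx2(fl/+) or the Emx2(fl/fl) controls alone. A row that carries the symbol Olfr115 with Olfr126, Olfr127, Olfr128 and Olfr761, and so is no member, had overlapping groups. That row differed by -0.25 (SE 0.27, unadjusted p = 0.385 by limma).

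Olfr99 was the second of the 3 lower members, and belongs to family MOR156. It read 7.80, 7.91, 7.93 and 8.27 in Emx2 knockout samples 1 to 4, against 8.46, 8.45, 8.82 and 8.80 in control samples 1 to 4. All 4 knockout values lay below all 4 control values. The means were 7.98 ± 0.20 in knockout samples and 8.63 ± 0.20 in control samples (SD, n = 4 each), a difference of -0.65 (SE 0.13, 95% interval -0.95 to -0.36), with an unadjusted p of 0.0008 and an adjusted p of 0.149 by limma. Centred on the other OR rows, the difference was -0.47 and the unadjusted p 0.0152.

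Olfr111, to which the annotation gives no MOR family name, read 8.07, 8.23, 7.84 and 8.24 in Emx2 knockout samples 1 to 4, against 8.54, 8.75, 8.80 and 8.59 in control samples 1 to 4. Here too the groups did not overlap. The means were 8.09 ± 0.19 in knockout samples and 8.67 ± 0.13 in control samples (SD, n = 4 each), a difference of -0.58 (SE 0.11, 95% interval -0.82 to -0.33), with an unadjusted p of 0.00052 and an adjusted p of 0.111 by limma. Centred on the other OR rows it was -0.39, with an unadjusted p of 0.103. With the 123Cre:Emx2(fl/+) controls alone it was -0.47 (unadjusted p = 0.0115). Knockout sample 3, not sample 2, was the lowest for Olfr111.

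Windows of the 3 lower members (250 bases before to 50 after the annotated start, RefSeq, GRCm38.p6) are printed as the counterpart of that of Olfr90, with motif matches in capitals. They lie at chr17:37610730-37611029 on the minus strand for Olfr115, chr17:37280369-37280668 on the minus strand for Olfr99 and chr17:37529707-37530006 on the plus strand for Olfr111. The window of Olfr99 holds 1 homeodomain motif, TAATGA, and the Ebf core, and those of Olfr115 and Olfr111 hold neither.
Olfr115: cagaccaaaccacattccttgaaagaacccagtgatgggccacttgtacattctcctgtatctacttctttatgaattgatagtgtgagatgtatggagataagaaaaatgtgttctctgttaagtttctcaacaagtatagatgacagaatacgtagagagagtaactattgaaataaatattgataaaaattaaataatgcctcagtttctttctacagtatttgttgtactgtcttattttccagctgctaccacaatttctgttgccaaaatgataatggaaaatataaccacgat
Olfr99: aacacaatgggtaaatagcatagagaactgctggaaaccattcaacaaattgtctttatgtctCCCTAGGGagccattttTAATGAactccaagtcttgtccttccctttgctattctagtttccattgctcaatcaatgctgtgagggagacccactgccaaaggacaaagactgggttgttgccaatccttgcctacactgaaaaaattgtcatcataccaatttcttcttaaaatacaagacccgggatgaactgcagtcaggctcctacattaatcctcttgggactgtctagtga
Olfr111: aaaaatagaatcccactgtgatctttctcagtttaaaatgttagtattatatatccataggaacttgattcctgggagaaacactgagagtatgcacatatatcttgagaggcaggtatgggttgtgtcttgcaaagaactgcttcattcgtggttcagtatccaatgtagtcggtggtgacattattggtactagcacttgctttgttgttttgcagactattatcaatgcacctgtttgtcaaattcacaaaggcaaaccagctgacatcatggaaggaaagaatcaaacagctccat

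Such windows were matched for 31 of 41 members, and lie between chr17:37086187 and chr17:38335208. Windows of Olfr91, Olfr103, Olfr106-ps, Olfr112, Olfr116, Olfr117, Olfr121, Olfr129, Olfr137 and Olfr138 were not analysed here. In 19 of the 31 the annotated start is the ATG codon, so the window lies around the start of translation. At least 1 of the 3 homeodomain motifs was found in 15 of 31 member windows (48.4%), 54.0% of the other OR windows and 19.9% of all windows of that length. The Ebf core was found in 4 member windows (Olfr93, Olfr96, Olfr99 and Olfr108; 12.9%), against 2.73% of the other OR windows and 13.7% of all windows. A match is a string of letters and not a bound site, and these shares were not tested.

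Some members resemble each other in these windows. In gap-free comparison of 465 pairs of member windows, 13 pairs shared a stretch of 60 bases with at least 80% identity. Of these, 2 pairs are shown, those of Olfr115 and of Olfr99 with the closest relative of each, and capitals mark the mismatches. Olfr114 (chr17:37590329-37590388, minus strand) and Olfr115 (chr17:37610733-37610792, minus strand) share 58 of 60 bases.
Olfr114: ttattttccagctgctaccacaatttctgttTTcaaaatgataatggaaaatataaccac
Olfr115: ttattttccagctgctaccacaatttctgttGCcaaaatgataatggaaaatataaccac
Olfr114 read 7.68, 7.41, 7.70 and 8.19 in Emx2 knockout samples, against 8.14, 7.85, 8.45 and 8.55 in control samples. Its groups overlapped, and its difference of -0.50 (SE 0.20, unadjusted p = 0.0303 by limma) had the same sign as the -1.10 of Olfr115. Olfr113, which shares 57 of 60 bases with Olfr114 and 54 of 60 with Olfr115 in such stretches, differed by -0.04 (SE 0.20).

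The other pair is Olfr99 (chr17:37280572-37280631, minus strand) and Olfr108 (chr17:37445347-37445406, plus strand), which also share 58 of 60 bases, including the Ebf core and TAATGA.
Olfr99: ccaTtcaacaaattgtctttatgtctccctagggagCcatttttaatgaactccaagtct
Olfr108: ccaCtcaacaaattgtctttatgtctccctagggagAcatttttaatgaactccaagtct
Olfr108 read 5.90, 5.62, 5.63 and 6.26 in Emx2 knockout samples, against 5.74, 5.83, 6.00 and 5.69 in control samples. Its level lay within the dimmest 30% of rows, unlike that of Olfr99. Its groups overlapped, and its difference was 0.04 (SE 0.15), beside -0.65 for Olfr99. The gap between these differences was not tested. The 2 further relatives of Olfr99 in family MOR156, Olfr97 and Olfr107, differed by -0.43 and -0.34. Probes of such relatives may bind each other's transcripts, and the part of this in the values was not tested.

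Only 3 further members had an unadjusted p under 0.05, and all 3 were lower. Olfr97 read 8.12, 7.89, 8.19 and 8.54 in Emx2 knockout samples, against 8.56, 8.41, 8.49 and 8.99 in control samples, a difference of -0.43 (SE 0.16, unadjusted p = 0.0287 by limma). Olfr110, of family MOR249, read 8.02, 8.09, 7.75 and 8.10 in Emx2 knockout samples, against 8.20, 8.43, 8.71 and 8.04 in control samples, a difference of -0.36 (SE 0.15, unadjusted p = 0.0405 by limma). Knockout and control values overlapped for both, as they did for Olfr114. Olfr110 differed by -0.13 (unadjusted p = 0.35 by limma) with the 123Cre:Emx2(fl/+) controls alone, -0.58 with the Emx2(fl/fl) controls alone and -0.23 (unadjusted p = 0.104 by limma) without control sample 3, and its unadjusted p was also above 0.05 without knockout sample 1 or 3 or control sample 2. Olfr97 lost an unadjusted p under 0.05 without knockout sample 1, 2 or 3 or control sample 4 and with array weights, and Olfr114 without knockout sample 1, 2 or 3 or control sample 3 or 4. With the Emx2(fl/fl) controls alone both lost it too, at -0.27 for Olfr97 and -0.41 for Olfr114. By the methods' t-test all 3 had an unadjusted p above 0.05 (0.0623 for Olfr97, 0.0770 for Olfr110 and 0.0687 for Olfr114). All 3 also lost it by limma after centring on mature OSN genes or on the other OR rows. Olfr110 lost it after quantile normalization as well (unadjusted p = 0.0535 by limma). A row that carries the symbols Olfr97 and Olfr98 together, and so is no member, differed by -0.19 (SE 0.19, unadjusted p = 0.322 by limma), with overlap. Olfr110 was also the single member at an unadjusted p under 0.05 in limma between the control genotypes, with a difference of -0.45 (SE 0.15), 123Cre:Emx2(fl/+) minus Emx2(fl/fl). In that comparison 0 members passed p under 0.01 by limma, where 0.278% of all rows did, and 1 passed p under 0.05 (2.44%), where 2.04% of all rows and 1.51% of the other OR rows did. Between the control genotypes Olfr90 differed by 0.04 (SE 0.22) and Olfr115 by 0.13 (SE 0.39).

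No other positive difference had an unadjusted p under 0.05 by limma. Olfr92 read 8.03, 8.13, 8.02 and 8.15 in Emx2 knockout samples, against 7.67, 7.75, 8.14 and 7.99 in control samples, a difference of 0.20 (SE 0.11, unadjusted p = 0.107 by limma). That of Olfr92 was 0.12 without control sample 1, 0.28 (unadjusted p = 0.0234 by limma) without control sample 3, and 0.30 (unadjusted p = 0.0153 by limma) after centring on mature OSN genes. Olfr94 read 8.10, 7.93, 7.75 and 8.06 in Emx2 knockout samples, against 7.63, 7.92, 7.98 and 7.73 in control samples, a difference of 0.14 (SE 0.11). In both the groups overlapped, as they did in Olfr127 (4.24 to 5.06 in the knockout and 4.39 to 5.03 in the control, difference 0.14, SE 0.20). Olfr129, which the study probed in tissue sections of mice with conditional Lhx2 deletion, read 7.75, 7.82, 7.81 and 8.20 in Emx2 knockout samples. It read 7.83, 7.54, 7.86 and 8.11 in control samples. Its difference of 0.06 (SE 0.14, 95% interval -0.26 to 0.38) changed sign with the samples used, to -0.04 without knockout sample 4, -0.04 without control sample 2, and -0.07 with the 123Cre:Emx2(fl/+) controls alone.

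**Figure D2:**
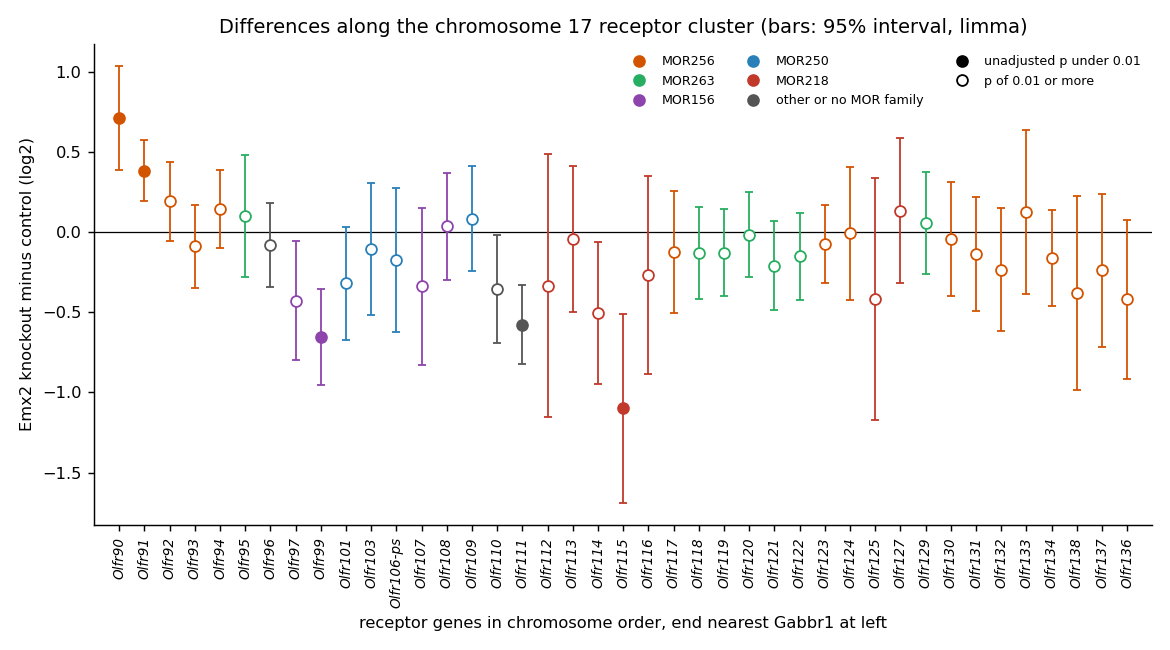
Emx2 knockout minus control (log2, vertical axis) for the 41 chromosome 17 ORs in chromosome order, with 95% intervals from limma (n = 4 per group), colored by MOR family. Filled points have an unadjusted p under 0.01. Olfr90 and Olfr91 at the left end lie above 0, and Olfr99, Olfr111 and Olfr115 lie below it.

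Along the chromosome, the positive differences gathered at the Gabbr1 end. Of the 6 rows from Olfr90 to Olfr95, 5 were above 0 and 1, Olfr93 at -0.09, was below, with a median of 0.17. Of the other 35 rows, 30 were below 0 and 5 above, with a median of -0.16. This division of the map was made after the values were seen and was not tested. Without knockout sample 2 the counts above 0 were 6 of 6 and 13 of 35. Centred on the other OR rows, which raised the median of all rows to 0.19 and so moves every row upward, they were 6 of 6 and 19 of 35, with Olfr93 now above 0.

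By sequence family, MOR218 and MOR156 had the lowest medians among families with more than 1 member, at -0.33 (7 rows, 6 below 0) and -0.38 (4 rows, 3 below 0). Centred on the other OR rows the medians were -0.15 for MOR218 and -0.20 for MOR156, and without knockout sample 2 they were -0.11 and -0.27. With array weights MOR218 had 4 of 7 below 0 and a median of -0.10. The members of MOR218 differed among themselves, from -1.10 for Olfr115 to 0.14 for Olfr127. MOR256, the family with the most rows, had 11 of 16 below 0 and a median of -0.08. Its 5 rows at the Gabbr1 end had 4 above 0 and its 11 rows elsewhere had 1. That family's median was 0.03 after centring on mature OSN genes, 0.10 after centring on the other OR rows and 0.02 without knockout sample 2. MOR263 (7 rows, median -0.13) and MOR250 (4 rows, median -0.14) turned to 0.06 and 0.05 after the second of these centrings, and MOR250 to 0.03 without knockout sample 2.

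Samples differed in their overall OR level within each group. The mean over the 41 members was 7.33, 7.10, 7.40 and 7.66 in Emx2 knockout samples 1 to 4, against 7.45, 7.31, 7.67 and 7.67 in control samples 1 to 4. The groups overlapped, at 7.37 ± 0.23 in knockout samples and 7.52 ± 0.18 in control samples (SD, n = 4 each). The mean over the other OR rows was 7.28, 6.97, 7.57 and 7.67 in the knockout, against 7.55, 7.30, 7.69 and 7.67 in the control. Members minus other ORs came to 0.05, 0.13, -0.17 and -0.01 in the knockout, against -0.10, 0.01, -0.02 and -0.01 in the control, with means near 0 in each group (0.00 ± 0.13 in knockout samples and -0.03 ± 0.05 in control samples, SD, n = 4 each).

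Single samples set many of the extremes. Of the 41 members, 23 had their lowest of 8 values in knockout sample 2 and 8 in control sample 2. Knockout sample 4 held the highest value of 17 members, control sample 3 of 11 and control sample 4 of 9. Some members did not follow this common level. Olfr90, Olfr91, Olfr94 and Olfr121 had a negative correlation over the 8 arrays with the mean of the other ORs, while the median over members was 0.74. These correlations describe arrays that share their overall OR level and include the difference between groups.

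**Figure D3:**
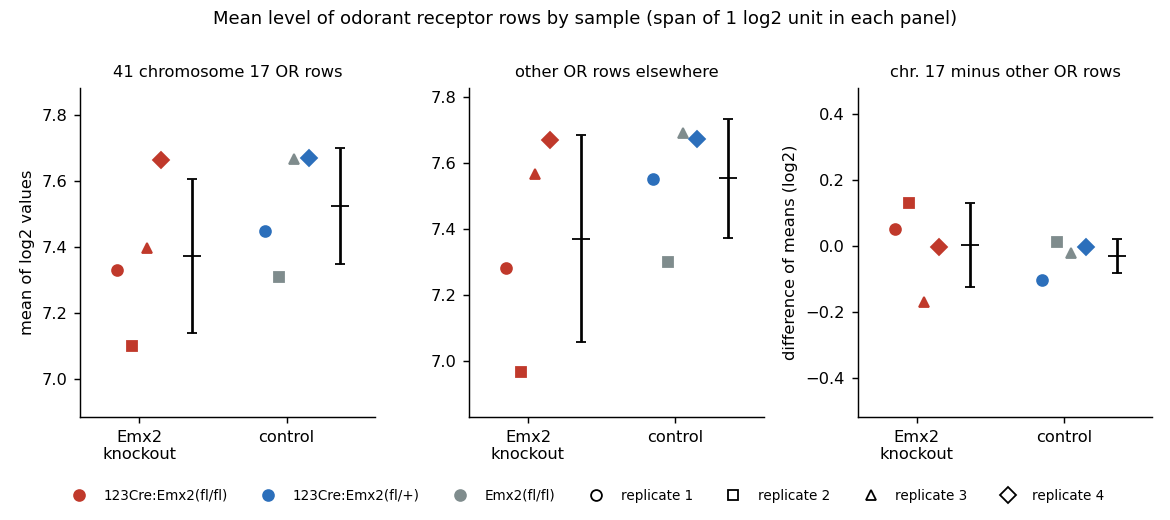
Mean log2 value per sample of the 41 chromosome 17 OR rows, of the other OR rows, and the difference between these means, in Emx2 knockout and control samples (1 point per sample, mean and SD beside, n = 4 each). Knockout sample 2 is lowest in the first 2 panels, and in the third the groups overlap around 0.

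The remaining members overlapped between the groups. Without overlap, 3 members were lower (7.32%, against 2.54% of all rows and 5.23% of the other OR rows) and 2 higher (4.88%, against 1.98% and 1.21%). Together these were 12.2% of members, 4.52% of all rows and 6.44% of the other OR rows, and they were the same 5 members as above. All 5 lay above the level that cuts off the dimmest 30% of rows (7.47), as did 18 other members, while the 18 members below that level had no call at p under 0.05. Their differences ran from -0.38 for Olfr138 to 0.14 for Olfr127. Among brighter members without a call, Olfr96 differed by -0.08 (SE 0.12), Olfr109 by 0.09 (SE 0.15) and Olfr116 by -0.27 (SE 0.27).

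The order of the sample titles gave a further split, since the first 4 and the last 4 titles each hold 2 knockout and 2 control samples. Olfr90 differed by 0.92 among the first 4 and 0.51 among the last 4, and Olfr91 by 0.42 and 0.35. Olfr115 differed by -1.13 and -1.06, Olfr99 by -0.60 and -0.71, and Olfr111 by -0.50 and -0.66. Each of these 5 had the same sign in both sets, which had to follow because their groups did not overlap. In all, 23 members were below 0 in both sets (56.1%, against 25.4% of all rows and 59.3% of the other OR rows) and 8 were above 0 in both (19.5%, against 27.3% and 11.6%). With this split as a block in limma, Olfr115, Olfr99 and Olfr90 passed the adjusted threshold (adjusted p = 0.0058, 0.0132 and 0.0406), and 6 members were lower at an unadjusted p under 0.01 (14.6%, against 1.91% of all rows and 11.4% of the other OR rows). The share of all rows that passed the adjusted threshold with this block is not given here. The titles are not known to mark a batch.

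**Figure D4:**
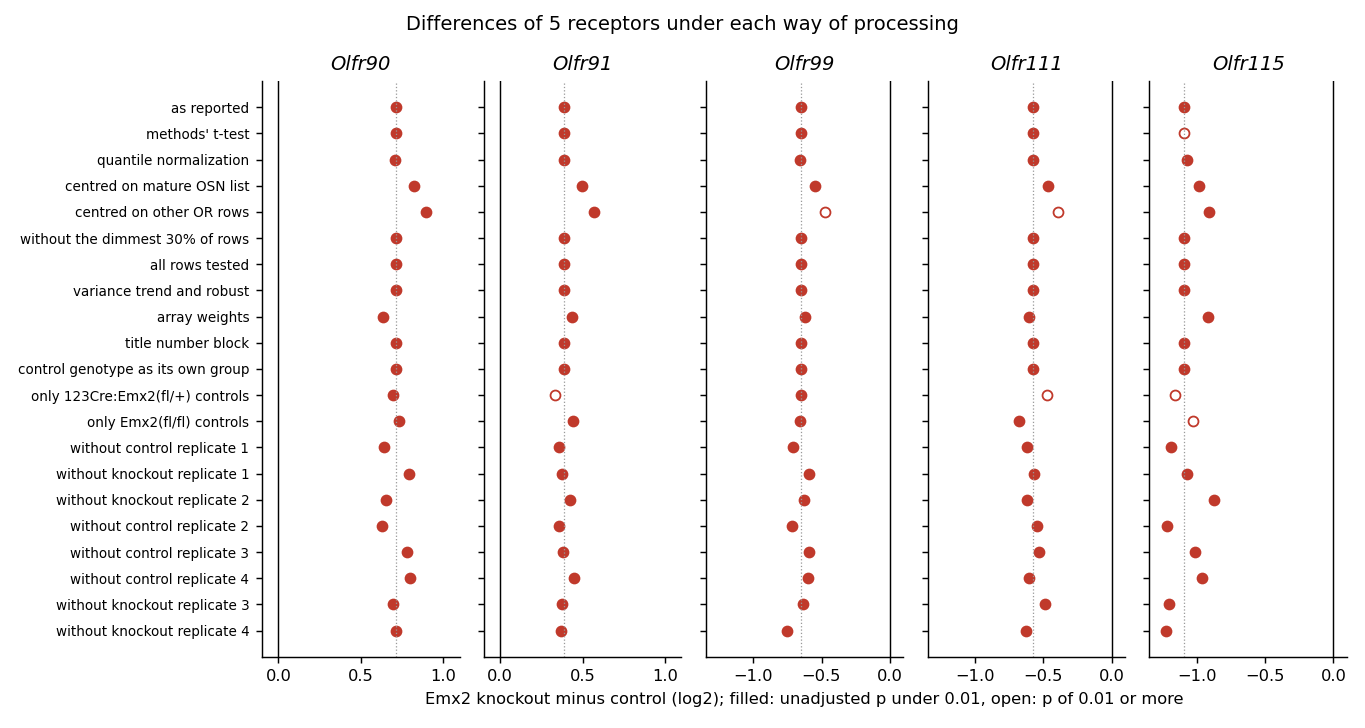
Emx2 knockout minus control (log2, horizontal axis) of the 5 called members as reported and under each of 20 alternatives (1 line each; OSN, olfactory sensory neuron; OR, odorant receptor). Filled points have an unadjusted p under 0.01, and the dotted line marks the value as reported. No point crosses 0, and all points of Olfr90 are filled. As the groups do not overlap, only quantile normalization and centring could have moved a point across 0.

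Genes that lie among or beside these receptors were taken from 2 lists. Of 12 H2-M genes, 0 passed the adjusted threshold by limma, and at an unadjusted p under 0.05 there was 1 lower and 1 higher. H2-M10.3, of a class I group known from vomeronasal neurons, read 6.48, 6.76, 6.62 and 6.82 in Emx2 knockout samples, against 7.11, 7.18, 7.08 and 7.13 in control samples. Those values did not overlap (difference -0.46, SE 0.085, limma adjusted p = 0.108). Markers of vomeronasal neurons other than receptors lay in the same direction, with 5 of 6 below 0 and a median of -0.14 (0.05 after centring on the other OR rows), and 0 at the adjusted threshold by limma (1 lower at an unadjusted p under 0.05). Their mean ran from 10.72 to 10.94 in the knockout and from 10.88 to 10.98 in the control, and their part in this value was not tested. H2-M10.1 was the higher one, at 0.25 (SE 0.081, unadjusted p = 0.0139 by limma).

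Within the receptor cluster itself lie H2-M3, H2-M2 and Ubd, a ubiquitin-like modifier. They differed by 0.10 (SE 0.060), 0.03 (SE 0.085) and 0.00 (SE 0.063), and none had an unadjusted p under 0.05 by limma. Gabbr1, which flanks the Olfr90 end and encodes a GABA-B receptor subunit, differed by -0.18 (SE 0.10). Of 19 measured genes in the list of other neighbors, 0 had an unadjusted p under 0.05 by limma, and their differences ran from -0.18 for Gabbr1 to 0.09 for Ppp1r11. Of 7 measured genes in the list named for classical H2 genes, 0 had an unadjusted p under 0.05 by limma, with a median of -0.02. These were H2-Q4, H2-Aa, H2-Ab1, H2-Eb1, B2m, Tap1 and Tap2. H2-K1, H2-D1 and H2-T23 of that list were not measured.

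The cells that express these receptors were measured through marker lists. Of 19 mature OSN markers, 15 were below 0, with a median of -0.11, and 0 passed the adjusted threshold by limma. Their mean was 11.41, 11.43, 11.32 and 11.46 in Emx2 knockout samples, against 11.52, 11.47, 11.55 and 11.50 in control samples. These did not overlap, but the highest knockout mean (11.46) lay just below the lowest control mean (11.47). The study reports no change in mature or immature OSN numbers when Emx2 was deleted conditionally. Ano2, the chloride channel of OSN cilia, Rtp2, an OR trafficking protein, and S100a5, a calcium-binding protein of mature OSNs, were lower at an unadjusted p under 0.01, at -0.35, -0.40 and -0.52. The 4 above 0 were Cnga4 at 0.27 (unadjusted p = 0.030 by limma), Faim2 at 0.13, Slc24a4 at 0.04 and Gnal at 0.002. Of 15 immature OSN markers, 13 were below 0 with a median of -0.12, and Gap43 differed by -0.23 (SE 0.068, limma adjusted p = 0.564). After centring on the mature OSN list the median of immature OSN markers was -0.01.

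Markers of other cells moved in part with the groups. All 8 measured markers of respiratory ciliated cells were above 0 (median 0.23), and their mean ran from 10.17 to 10.55 in the knockout and from 10.08 to 10.25 in the control. All 7 of skeletal muscle were above 0 (median 0.10), with means from 7.37 to 7.55 in the knockout and from 7.21 to 7.45 in the control. Of 6 markers of olfactory bulb and brain, 5 were below 0 (median -0.27), with means from 7.05 to 7.36 in the knockout and from 7.13 to 7.77 in the control. Lists of sustentacular cells (7 measured), progenitors and basal cells (9) and leukocytes (7) had 0 genes at an unadjusted p under 0.05 by limma. In a list of 17 factors of OR gene choice, Emx2 and Rtp2 were lower at an unadjusted p under 0.01 and no other gene had one under 0.05. No marker in the lists of ciliated cells, muscle and brain passed the adjusted threshold by limma, and 2, 2 and 1 had an unadjusted p under 0.05. The part of tissue composition in the differences of the receptors was not tested.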

How the data were processed

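Total RNA of 8 olfactory mucosa samples was measured on 1 Affymetrix Mouse Gene ST array each. The deposited values are log2 levels per transcript cluster, made by the authors with Affymetrix Expression Console, per the submitters' processing notes. The program's version, background correction and summary method are not stated in the sources used, nor is whether these values include the normalization to mature OSN mRNAs that the methods describe. Array medians lay between 8.00 and 8.13. The table has 35557 rows: 21789 with 1 symbol, 1621 with several and 12147 with none.

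All 23410 rows with a symbol were tested by limma 3.58.1 (lmFit and eBayes, two-sided, R 4.3.3), Emx2 knockout against control with no covariate. The Benjamini-Hochberg adjustment ran over these rows. Members were rows of this fit. All members could be named. Values per sample were required for members at an unadjusted p under 0.01, the 5 largest differences in each direction, Olfr90 and Olfr129. Emx2, Lhx2, Omp, Gap43 and up to 4 genes of each list were also named, and other genes with values were chosen after these had been seen. The rule for members uses gene numbers alone, but the cluster to be described, the gene lists and the tests were chosen with earlier results of these data known. A list uses the brightest row of each gene. The fit was tested on simulated data. The settings varied were the normalization (quantile), the test (the methods' t-test), centring, filters, a variance trend, array weights, a block, control genotype, and each sample left out. Windows came from RefSeq, GRCm38.p6. The number of arrays limits the precision.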

Additional observations from a re-analysis of the deposited data

Results flagged for a closer look

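In 3 of the 94 groups of 4 samples that were examined, 1 sample lay farther from the others than Dixon's 95% critical value allows, where chance gives about 1 group in 20. Olfr129 read 8.20 in knockout sample 4, against 7.75 to 7.82 in the other knockout samples. Olfr112, whose level was dim, read 7.40 in control sample 4, against 5.91 to 6.07 in the other control samples. Olfr93 read 7.65 in control sample 4, against 7.33 to 7.38 in the other control samples. None of these 3 members had an unadjusted p under 0.05 between the groups by limma.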

How the results depend on the processing

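The 5 called members kept their direction in all 20 alternatives computed for each, and Olfr90 kept an unadjusted p under 0.01 in all of them. Since their groups did not overlap, only quantile normalization and centring, which change the values, could have turned a direction. The other alternatives could not. Members at an adjusted p under 0.05 numbered 0, but 1 lower (Olfr111) and 1 higher (Olfr91) with array weights, and 2 lower (Olfr99 and Olfr115) and 1 higher (Olfr90) with the first and last 4 titles as a block. Shares of all rows past the adjusted threshold with array weights or the block are not given here. At an unadjusted p under 0.01 by limma, the 3 lower members became 1 when centred on the other OR rows (1.91% of other ORs and 0.389% of all rows lower). They became 6 with that block (11.4% and 1.91%) and 1 with the 123Cre:Emx2(fl/+) controls alone (1.11% and 0.671%). With 1 sample left out they numbered 3 to 5 (5 without knockout sample 4), against 1.31% to 6.04% of other ORs and 0.876% to 1.78% of all rows. The 2 higher members became 1 with the 123Cre:Emx2(fl/+) controls alone (0.503% of other ORs and 0.132% of all rows higher). They stayed 2 with any sample left out, against 0.503% to 4.23% of other ORs and 0.218% to 1.36% of all rows. The highest of these shares came without knockout sample 2, close to the 4.88% of members. At an unadjusted p under 0.05, the 6 lower members became 3 by the methods' t-test, 3 when centred on mature OSN genes, 2 when centred on the other OR rows, and 3 to 10 with 1 sample left out (3 without knockout sample 1 or 3, 10 without knockout sample 4). The 2 higher became 4 when centred on mature OSN genes, and 2 to 3 with 1 sample left out. At an unadjusted p under 0.01 by limma, that centring took 3% of all rows and 2.01% of the other OR rows as higher. For the counts at p under 0.05 in these alternatives, such shares are not given here. Those counts are therefore not read as results about the members. The cause of these changes in counts was not tested.

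The members' median difference ran from -0.21 (without knockout sample 4) to 0.05, and from -0.21 to -0.03 with 1 sample left out. Centring on mature OSN genes raised the median of all rows to 0.11, and centring on the other OR rows to 0.19, so those settings shift every row. Olfr129 turned to -0.073 with the 123Cre:Emx2(fl/+) controls alone, -0.038 without control sample 2 and -0.042 without knockout sample 4, a range of -0.04 to 0.15 with 1 sample left out. Lhx2 turned to 0.105 and Omp to 0.051 when centred on mature OSN genes, and Lhx2 ran from -0.026 to 0.035 with 1 sample left out, at 0.002, 0.012 and 0.035 without control sample 2, control sample 3 and knockout sample 3. No paired analysis was possible because the labels give no replicate number that knockout and control samples share. Arrays give no read depth, and dim rows limit what can be seen.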
